A study of Arabidopsis thaliana with 24 samples.

Results

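Transcript levels were compared between a pair of Arabidopsis thaliana lines that differ in the catalytic site of the RNA-processing protein DXO1. Both lines carry a full-length DXO1 transgene under the 35S promoter, a viral promoter active in most plant tissues, in the insertion mutant dxo1-2. In the active line (comp-wt) the protein is unaltered, and in the substituted line (comp-mut) it carries E394A and D396A. The members were taken from the sample titles: 8 of the 24 libraries, 4 for each line. The other 16 came from Col-0, from dxo1-2 without a transgene, and from lines with the same 2 proteins shortened at the N-terminus (comp-wt-dN and comp-mut-dN). All plants were 21 days old and grown in soil with 16 h of light and 8 h of darkness. Every transgene sits in dxo1-2, so neither full-length line has the native DXO1 allele intact. The labels name 1 line per construct and do not say how many independent transformants, plants or pools stand behind the 4 libraries, so p-values measure only the spread between these libraries, and an effect of the insertion in 1 line cannot be told apart from that of the substitutions. Libraries were made from transcript 3' ends, and the total count ran from 2252639 to 3490594 in the active line and from 1273473 to 2279619 in the substituted line.

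DXO proteins act on the 5' ends of RNA, where they remove non-canonical caps such as the one formed by NAD and, in several species, degrade the RNA that is set free. Acidic residues of the active site hold the metal ion that catalysis needs, and replacing them by alanine is the usual way to make an inactive form. The plant protein has in addition an N-terminal extension that animal and fungal relatives lack, and plants without DXO1 are small and pale with active defence genes.

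The reference sequence around the substituted codons shows how close together they lie. It covers chr4:9823925-9823981 on the plus strand (RefSeq, TAIR10.1), inside 1 exon of DXO1, and codons 386 to 404 of a protein of 544 residues. The capitals mark the glutamate codon that E394A changes to alanine and the aspartate codon that D396A changes.
DXO1: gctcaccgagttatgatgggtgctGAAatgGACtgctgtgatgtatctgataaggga

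Reads of the DXO1 locus (AT4G17620, chr4:9821874-9825039) were found in both lines. In CPM, which are counts scaled to a common library size after TMM adjustment, the active line had 13.4, 10.9, 13.0 and 11.3, and the substituted line had 18.8, 21.6, 15.9 and 17.4. All 4 substituted libraries lay above all 4 active ones. The log2 difference of 0.60 (SE 0.26) did not pass the test across all genes (edgeR, adjusted p = 0.165). The level was read from 138 counts in the active line and 113 in the substituted line. Col-0 had 15.6 ± 2.97 CPM and dxo1-2 had 3.36 ± 0.645 CPM. Whether the transgenes carry the native 3' end that is counted here is not given in the sources used here, so these values may not measure the whole transgene transcript. The counts do not show whether a read carries the substituted codons, which lie upstream of the counted 3' ends.

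Library 3 of the substituted line stood apart from the other 3. On the first principal component of the 8 libraries, which held 51.1% of the variance, it scored -40.8, among the active libraries at -43.5 to -7.9, while the other substituted libraries scored 36.4 to 68.3. Log2 CPM depended least on exon length in it, with a slope of -0.0827, against -0.86 to -0.703 in the other substituted libraries and -0.515 to -0.21 in the active ones. Its mitochondrial share was 0.27% of counts, against 0.0627% to 0.118% in the other 7. Genes of the phloem list summed to 906 CPM in it and to 527, 650 and 653 CPM in the other substituted libraries. In the active libraries they summed to 827, 710, 761 and 794 CPM. No label explains the library, and it was kept in the main test. Results are given with and without it, and their part in the results of length, mitochondrial share and phloem level was not tested beyond the fits named here.

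**Figure D1:**
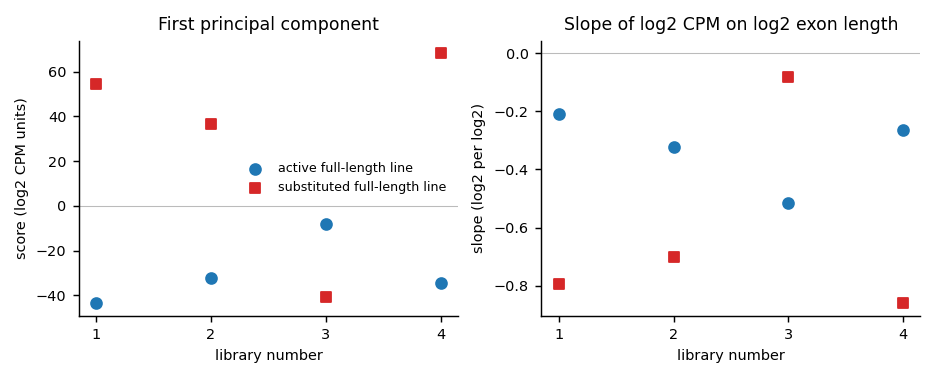
First principal component score (left, log2 CPM units) and slope of log2 CPM on log2 exon length (right) for the 8 libraries, by library number, with circles for the active and squares for the substituted line. Library 3 of the substituted line, at -40.8 and -0.0827, lies with or beyond the active libraries, and the other 3 substituted libraries lie at 36.4 to 68.3 and at -0.86 to -0.703.

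Between the lines 854 of 13592 tested genes were called different (6.28%) at an adjusted p under 0.05 by the edgeR quasi-likelihood test. Of these 515 were higher in the substituted line (3.79%) and 339 lower (2.49%). The median size of a called difference was 1.05 on the log2 scale, 459 genes differed by more than 1 and 68 by more than 2. The groups did not overlap in 719 of the called genes, and in 12.7% of all tested genes. Without library 3 of the substituted line 2585 of 13721 genes were called (18.8%), of which 1324 were higher (9.65%) and 1261 lower (9.19%), and 828 of the 854 were among them with the same direction. List counts given below without that library come from this fit, where calls over all genes were more frequent in both directions. With the dependence on exon length taken out of every library 1278 genes were called (9.4%), 783 of them from the 854, and 762 genes were called in all 3 fits. The count without 1 library fell by more than 1.5 times for several others: it was 506, 500 and 421 without library 1, 2 or 4 of the substituted line, and 529, 448 and 532 without library 1, 2 or 4 of the active line. In 328 genes the call held in every fit that left out 1 library, and in 0 of the 854 did the direction change in any of them.

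The 5 higher genes with the smallest p were FLA9, EXL3, PYL4, FLA2 and AT1G72416. FLA9 (AT1G03870), a fasciclin-like arabinogalactan protein, had 13.0, 11.4, 18.8 and 11.3 CPM in the active line and 92.1, 69.9, 83.1 and 115 CPM in the substituted line. The lowest substituted library lay far above the highest active one, with a log2 difference of 2.71 (SE 0.21, edgeR adjusted p = 8.05e-09). EXL3 (AT5G51550), an EXORDIUM-like protein, had 52.8, 37.2, 61.4 and 44.1 CPM against 221, 225, 205 and 256 CPM, a log2 difference of 2.21 (SE 0.19, edgeR adjusted p = 3.37e-08). Library 3 of the substituted line was not set apart for either gene. FLA2 (AT4G12730) had 46.7, 36.1, 43.7 and 39.9 CPM in the active line and 133, 142, 138 and 143 CPM in the substituted line. FLA13 had 81.3, 68.1, 85.3 and 64.7 CPM and then 251, 225, 242 and 260 CPM.

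Of 16 listed fasciclin-like arabinogalactan proteins, which bind cell-wall polymers and anchor to the plasma membrane, 12 were tested and 6 rose in the substituted line. None fell, and all 12 had a positive log2 difference, with a median of 0.91 beside 0.01 over all tested genes. Without library 3 of the substituted line the count was again 6, and it was 4 to 6 whichever of the 8 libraries was left out. Summed over the list, the level was 344 ± 25.0 CPM in the active line and 893 ± 81.2 CPM in the substituted line (SD, n = 4 each). In Col-0 it was 419 ± 49.4 and in dxo1-2 516 ± 90.1 CPM, so the lowest substituted library, at 829 CPM, lay above every library of both. In bulk tissue fewer cells of a type and less RNA per cell cannot be told apart, for this and every gene below.

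Other families of the growing cell wall also had higher members, in lists added after the calls were seen. Of 20 tested arabinogalactan proteins 11 rose and 0 fell (median 1.01). AGP7 went from 15.1 ± 2.68 to 66.6 ± 8.90 CPM and AGP15 from 469 ± 50.5 to 1230 ± 300 CPM. In dxo1-2 AGP7 had 7.24 ± 3.61 CPM and AGP15 1430 ± 320 CPM. Of 19 tested XTH genes, whose enzymes cut and rejoin xyloglucan, 7 rose and 1 fell (median 0.68). XTH4 rose by 1.27 on the log2 scale, and XTH31, the one that fell, differed by -1.61. Of 7 tested RALF peptides, secreted signals that change the pH of the wall, 5 rose and 0 fell (median 1.04), among them RALF23 and RALFL22 with log2 differences of 1.24 and 1.70. Without library 3 of the substituted line the higher counts were 13, 10 and 6, in a fit that called 9.65% of all genes higher. With the dependence on exon length taken out they were 10, 7 and 5, with 1, 1 and 0 lower. The medians were then 0.81, 0.68 and 0.71. The fewest without 1 library were 10, 5 and 3, the last without library 1 or 4 of either line. These families are also where library 3 lay between the lines: AGP15 had 805 CPM in it against 1280 to 1500 in the other 3, and 409 to 527 in the active line. Summed RALF peptides had 249 ± 28.8 CPM in the active line, 532 ± 153 in the substituted line and 689 ± 163 in dxo1-2. XTH genes had 988 ± 196, 1920 ± 386 and 1270 ± 118 CPM in the same order. The substituted line overlapped dxo1-2 in the sums of arabinogalactan proteins and RALF peptides, and lay above it in that of XTH genes.

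The SAUR genes, small proteins made quickly after auxin and linked to cell expansion, had 9 higher and 0 lower among 38 tested of 80 listed (median 0.80). This count rested on the libraries more than most, at 18 without library 3 of the substituted line and as low as 2 without library 1 or 4 of the substituted or library 4 of the active line. The fit without library 3 of the substituted line called 9.65% of all genes higher. With the dependence on exon length taken out, 9 were higher and 1 lower, and the median was 0.45. AT4G38840 had 33.7, 31.2, 49.8 and 41.6 CPM in the active line and 123, 117, 63.0 and 106 CPM in the substituted line, a log2 difference of 1.38 (edgeR adjusted p = 0.00062). The lines did not overlap, with library 3 again the lowest of the substituted ones. AT4G34770 differed by 2.24 (edgeR adjusted p = 0.00183). The auxin receptor AFB3 had 17.2 ± 2.69 CPM in the active line and 57.3 ± 7.92 CPM in the substituted line, a log2 difference of 1.73 (edgeR adjusted p = 0.000221). PAR2, a small helix-loop-helix protein that restrains shade and auxin responses, differed by 2.69 (edgeR adjusted p = 2.5e-05).

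**Figure D2:**
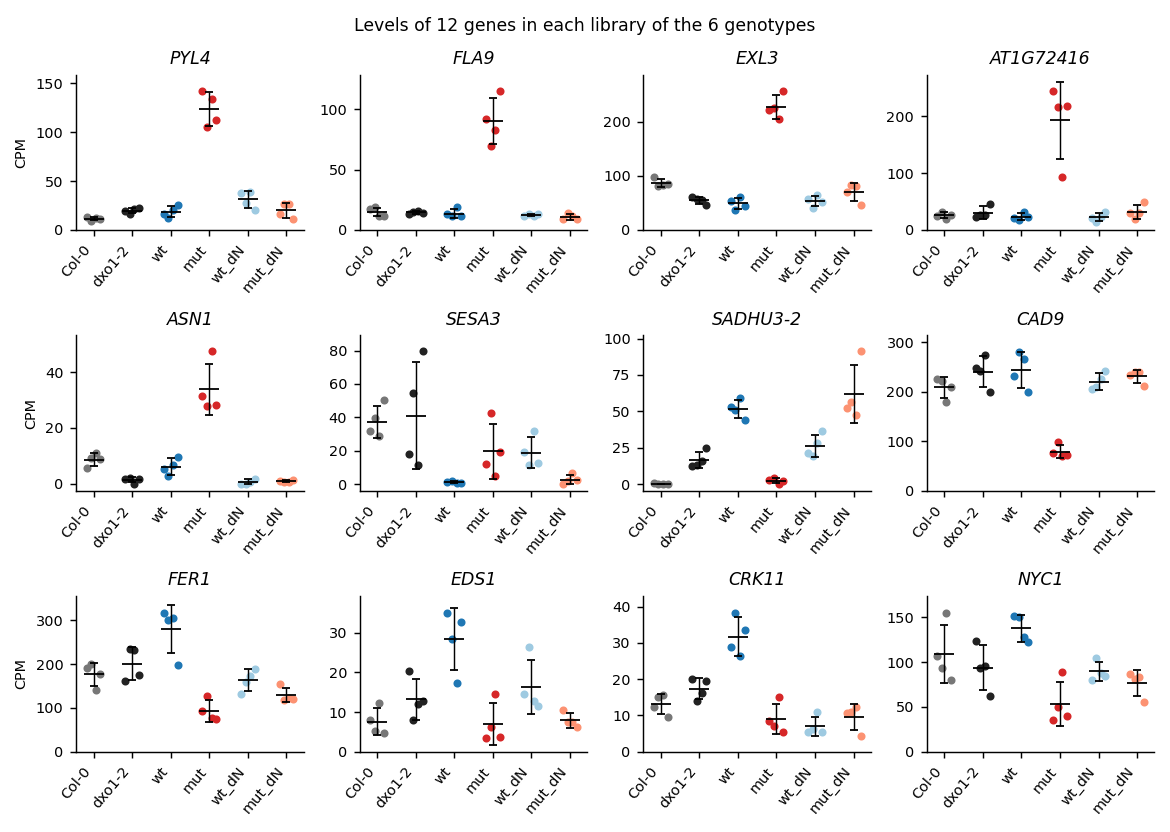
Level in CPM (linear axis) of 12 genes in every library of the 6 genotypes, with points for libraries and the mean ± SD (n = 4) of each. Between the full-length lines FLA9, PYL4 and EXL3 are higher in every substituted library, CAD9 and SADHU3-2 are lower in every one, and for AT1G72416 library 3 of the substituted line, at 93.1 CPM, is the lowest of its line.

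Of 8 tested receptors of abscisic acid 4 rose. PYL4 (AT2G38310) had 16.3, 12.2, 20.1 and 25.6 CPM in the active line and 142, 105, 134 and 113 CPM in the substituted line, a log2 difference of 2.74 (SE 0.24, edgeR adjusted p = 5.75e-08). The lines did not overlap, and library 3 was among the highest of its line. PYL5 had 9.77 to 18.4 CPM and 49.7 to 97.3 CPM (2.57), PYR1 22.3 to 31.1 and 52.6 to 87.0 CPM (1.46), and PYL6 1.09 to 2.52 and 7.33 to 22.2 CPM (2.86). PYL7 was the exception, at 51.6 to 69.5 CPM in the active line and 29.3 to 40.0 CPM in the substituted line (-0.85, edgeR adjusted p = 0.00708). Of 14 listed receptors 8 were tested, 4 rose and 1 fell, with a median of 1.13, and without library 3 of the substituted line 6 rose and 1 fell. Summed, the receptors had 212 ± 14.0 CPM in the active line and 467 ± 69.6 CPM in the substituted line. Col-0 had 187 to 204 CPM and dxo1-2 288 to 444 CPM, so the sum of the substituted line, at 365 to 522 CPM, overlapped that of the mutant.

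None of the 7 tested clade A PP2C phosphatases, which the receptors inhibit when the hormone is bound, was called in either direction. All 7 had a negative log2 difference, with a median of -0.56. ABI1 had 57.3, 83.1, 73.4 and 63.0 CPM against 57.2, 54.6, 28.8 and 49.5 CPM (-0.56, edgeR adjusted p = 0.117). Every substituted library was below every active one, but library 1 of each line had nearly the same level. Of 14 tested genes of the abscisic acid and drought list 0 rose and 2 fell, with a median of -0.48. Leaving out library 3 of the substituted line gave 1 that rose and 4 that fell. The summed level of this list was 5930 ± 629 CPM in the active and 6970 ± 705 CPM in the substituted line. PUB19, a ubiquitin ligase induced by drought, had 3.25, 18.2, 6.14 and 7.56 CPM in the active line and 0.853, 0, 0 and 0.916 CPM in the substituted line. From counts summed over each line, the ratio of active to substituted was 30.2 (95% interval 8.17 to 252, for counting error only). Library 2 of the active line weighed most in it. MYB74, a factor induced by drought and salt, had a ratio of 14.9 (95% interval 4.91 to 73.6), from 5.04 to 9.77 CPM in the active line and 0 to 1.27 in the substituted line. Of 10 tested cold response genes 0 were called, and COR15A had 1530 to 2390 CPM and 1500 to 3490 CPM.

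The promoter of PUB19 is shown because it holds the G-box CACGTG, the core of the element bound by abscisic acid related bZIP factors, 3 times. It is the 150 bases before the start at chr1:22198116-22198265 on the plus strand (RefSeq, TAIR10.1), with G-boxes in capitals.
PUB19: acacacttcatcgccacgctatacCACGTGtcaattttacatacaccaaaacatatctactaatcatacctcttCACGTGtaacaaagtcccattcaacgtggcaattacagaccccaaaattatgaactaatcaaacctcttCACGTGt

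Genes that respond to low sugar and to darkness were partly higher in the substituted line. ASN1 (AT3G47340), a glutamine-dependent asparagine synthetase known for its induction in the dark, had 5.28, 2.71, 6.83 and 9.66 CPM in the active line and 31.6, 27.9, 47.6 and 28.4 CPM in the substituted line. Every substituted library lay above every active one, and the log2 difference was 2.50 (SE 0.39, edgeR adjusted p = 0.000254). DIN10 had 39.6 to 66.7 CPM and then 116, 141, 303 and 107 CPM, with library 3 at the top. ERD5, a proline dehydrogenase, differed by 1.84 (edgeR adjusted p = 0.00328) and the hexose transporter STP1 by 0.84 (edgeR adjusted p = 0.00455). Of 21 tested genes of this list 5 rose and 0 fell, the median was 0.08 and 14 of the 21 had a positive difference. Without library 3 of the substituted line 8 rose and 3 fell, in a fit that called 9.65% of all genes higher and 9.19% lower. The summed level was 2730 ± 451 CPM in the active and 4920 ± 905 CPM in the substituted line. Of 7 tested class II trehalose phosphate synthases 0 rose and 1 fell (TPS10), 2 had a positive difference and the median was -0.53. Without library 3 of the substituted line 2 fell, and 0 fell after the length trend was removed. These synthases summed to 350 ± 51.8 CPM in the active and 269 ± 97.9 CPM in the substituted line. Among 8 tested bZIP factors of groups C and S1, which act in the low-energy response and were listed after the calls were seen, 5 rose and 0 fell (median 1.22), in every fit that left out 1 library. bZIP2 went from 30.2 ± 5.58 to 112 ± 37.3 CPM and BZIP53 from 89.7 ± 8.23 to 225 ± 72.5 CPM. They had 32.4 ± 6.91 and 138 ± 24.9 CPM in Col-0 and 137 ± 35.1 and 302 ± 86.0 CPM in dxo1-2. The mean of the substituted line was thus below that of the mutant for both, and BZIP53 in the active line lay below all other libraries.

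Transcripts of seed storage and oil body proteins were low in both lines, and 7 of 11 tested were higher in the substituted line. SESA3 (AT4G27160), a 2S albumin, had 1.22, 1.90, 0.683 and 0.42 CPM in the active line and 11.9, 42.5, 5.01 and 19.2 CPM in the substituted line. The groups did not overlap, but the substituted libraries differed widely among themselves, with library 2 the highest and library 3 the lowest. The log2 difference was 4.04 (SE 0.78, edgeR adjusted p = 0.00188). SESA5 had 0 to 1.22 CPM and 1.67 to 15.2 CPM (3.16, edgeR adjusted p = 0.00203). The oleosin OLEO1 had 0.42 to 1.90 CPM and 2.92 to 24.7 CPM (3.09, edgeR adjusted p = 0.0052), and the adjusted p was 0.0685 without library 4 of the substituted line. CRU3, a cruciferin, differed by 2.43 (edgeR adjusted p = 0.0168), and its adjusted p was 0.136 without library 2 of the substituted line and 0.0508 and 0.0541 without library 3 or 4 of the active line.

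Of 18 listed seed genes 11 were tested, 7 rose and 0 fell, and all 11 had a positive difference with a median of 2.43. Without library 3 of the substituted line 9 rose, and the fewest was 3, without library 2 of the substituted or library 3 of the active line. The summed level was 12.6 ± 5.99 CPM in the active line and 88.7 ± 62.5 CPM in the substituted line. It was 199 ± 40.7 CPM in Col-0, 218 ± 118 in dxo1-2, 124 ± 35.9 in the truncated active line and 21.5 ± 17.2 in the truncated substituted line. The active full-length line was thus the lowest of the 6 groups, and in the truncated pair the order was the opposite, with 0 higher and 6 lower of the 11. Whether seeds or seed coats were carried into some libraries was not tested. Markers of flower and fruit were at or near 0 in the 8 libraries: AP1, LFY, AP3 and PI had 0 counts in every one, and 0 of the 10 markers passed the filter on low counts.

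The promoters of 3 of these seed genes are printed because they share motifs. Each stretch is the 150 bases before the start (RefSeq, TAIR10.1), with capitals for the G-box CACGTG and the RY repeat, CATGCA or TGCATG, which seed-specific B3 factors bind. SESA3 is at chr4:13611646-13611795 on the plus strand, SESA5 at chr5:22239188-22239337 on the minus strand and OLEO1 at chr4:12900280-12900429 on the plus strand.
SESA3: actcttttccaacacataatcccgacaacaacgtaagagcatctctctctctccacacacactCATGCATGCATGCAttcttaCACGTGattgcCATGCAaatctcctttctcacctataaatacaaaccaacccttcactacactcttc
SESA5: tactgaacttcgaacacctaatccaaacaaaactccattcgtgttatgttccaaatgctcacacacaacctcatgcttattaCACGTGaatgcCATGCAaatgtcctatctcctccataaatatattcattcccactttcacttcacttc
OLEO1: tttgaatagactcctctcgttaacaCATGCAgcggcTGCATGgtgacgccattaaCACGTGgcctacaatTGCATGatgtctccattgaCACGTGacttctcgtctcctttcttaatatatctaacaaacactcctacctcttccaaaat
Within 250 bases before the start, 9 of the 11 tested seed genes held an RY repeat (81.8%) and 6 a G-box (54.5%), against 6.84% and 7.70% of all 13505 tested genes with a promoter sequence.

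Across all called genes most motif shares were near those of all tested genes. The GCC box was rarer in the lower genes, in 2 of 337, and the RY repeat more frequent in the higher ones. Neither was tested. The G-box was in 7.57% of the 515 higher and 7.12% of the 337 lower genes with a sequence. The RY repeat was in 9.51% and 5.64%, beside 6.84% of all tested genes. The evening element AAATATCT of clock factors was in 7.18% of the higher, 4.45% of the lower and 5.39% of all tested genes. The GCC box GCCGCC of ethylene response factors was in 2.52%, 0.593% and 1.94%. For the W-box TTGACC of WRKY factors the shares were 9.32%, 11.6% and 11.8%. The TATCCA element of sugar-repressed genes was in 16.3%, 17.2% and 14.9%, and the telo-box AAACCCTAA of ribosomal protein genes in 2.14%, 1.78% and 1.96%. Motifs were searched on both strands, and a match is no more than these letters in this window. The RY repeat was added after the seed gene promoters had been read. The 7 seed genes called higher are among the 515, so the share of the RY repeat there is partly built in.

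Jasmonate and ethylene output genes, which encode defensins and vegetative storage proteins, were higher in some substituted libraries only. PDF1.2b (AT2G26020) had 2.44, 0.814, 1.02 and 1.68 CPM in the active line and 2.56, 45.7, 20.5 and 6.41 CPM in the substituted line, a log2 difference of 3.71 (SE 0.76, edgeR adjusted p = 0.00335). Library 1 of the substituted line hardly exceeded the highest active library. The near-identical PDF1.2 overlapped between the lines, at 8.40 to 24.2 and 16.2 to 169 CPM, and its adjusted p of 0.0149 became 0.12 without library 2 of the substituted line and 0.0527 and 0.0601 without library 2 or 4 of the active line. VSP2 also overlapped, at 0.84 to 7.72 and 1.71 to 61.4 CPM (edgeR adjusted p = 0.00992, and 0.083 without library 4 of the substituted line). Of 11 tested outputs 4 rose and 0 fell (median 1.67), with 5 higher without library 3 of the substituted line and 2 without library 2 or 4 of that line or library 2 of the active line. Of 13 tested jasmonate synthesis genes 0 were called. AOS had 281 to 295 CPM in the active and 295 to 474 CPM in the substituted line.

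Of 18 tested genes of salicylate-linked immunity 3 were lower in the substituted line. EDS1 (AT3G48090), a lipase-like regulator of immune receptor signalling, had 35.0, 28.5, 17.4 and 32.8 CPM in the active line and 3.41, 6.35, 14.6 and 3.66 CPM in the substituted line, a log2 difference of -1.86 (SE 0.38, edgeR adjusted p = 0.00312). The groups did not overlap, and library 3 of each line came closest to the other line. Its partner PAD4 had 26.6 to 44.5 and 14.7 to 23.9 CPM (-0.88, edgeR adjusted p = 0.00612), and SARD1, a factor that activates salicylate synthesis, had 31.1 to 58.0 and 11.0 to 22.1 CPM (-1.18, edgeR adjusted p = 0.00301). These were the 3 called. None was called higher, 5 of the 18 had a positive difference and the median was -0.49. Without library 3 of the substituted line 6 were lower, in a fit that called 9.19% of all genes lower. The summed list had 737 ± 116 CPM in the active line, 511 ± 109 in the substituted line, 449 ± 17.4 in Col-0 and 1260 ± 393 in dxo1-2. The active line thus lay between Col-0 and the mutant, and the substituted line nearer to Col-0.

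Receptor kinases and WRKY factors of defence moved in part. Of 44 listed cysteine-rich receptor kinases 26 were tested, 6 fell and 0 rose, and 24 had a negative difference (median -0.76). CRK11 (AT4G23190) had 28.9, 38.3, 26.3 and 33.6 CPM in the active line and 8.53, 6.99, 15.0 and 5.50 CPM in the substituted line, a log2 difference of -1.73 (SE 0.29, edgeR adjusted p = 0.000584). The groups did not overlap, and library 3 of the substituted line was the highest of its line. ARCK1, CRK6 and CRK14 differed by -1.69, -1.63 and -1.39. Without library 3 of the substituted line 14 fell, in a fit that called 9.19% of all genes lower. The fewest without 1 library was 5. The kinases summed to 945 ± 115 CPM in the active line and 502 ± 128 in the substituted line, beside 571 ± 20.2 in Col-0 and 559 ± 96.2 in dxo1-2, so it was the active line that lay above the rest. Of 21 tested receptor-like proteins, listed after the calls were seen, 3 fell and 0 rose (median -0.52), 7 without library 3 of the substituted line and 1 without any of libraries 1, 2 and 4 of that line or libraries 1 and 2 of the active line. RLP34 went from 59.2 ± 9.88 to 23.6 ± 5.68 CPM. Of 8 tested defence WRKY factors 2 rose and 2 fell. Of these factors 4 fell without library 3 of the substituted line, 0 fell without library 2 of the active line, and 1 to 2 rose in the fits that left out 1 library. WRKY18 had 27.6 to 31.5 CPM and 39.4 to 91.0 CPM (1.24, edgeR adjusted p = 0.00207), and its relative WRKY40 had 15.9 to 41.8 and 2.56 to 15.2 CPM (-1.53, edgeR adjusted p = 0.00847, and 0.0639 without library 2 of the active line).

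**Figure D3:**
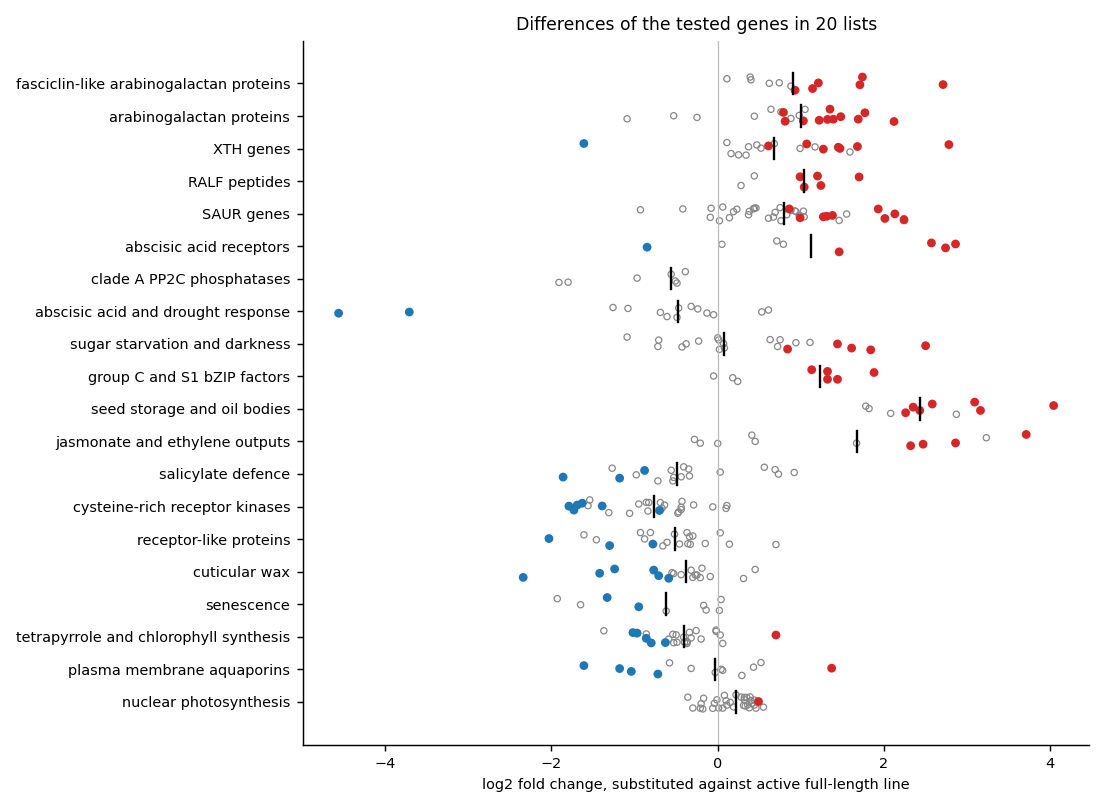
Log2 difference (substituted minus active line) of each tested gene in 20 lists, with filled red points for genes called higher, filled blue for genes called lower, open points for genes not called, and a black line at each list's median. The fasciclin-like arabinogalactan proteins and the seed genes lie above 0, with medians of 0.91 and 2.43, and the cysteine-rich receptor kinases mostly below, with a median of -0.76.

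Of 18 tested cuticular wax genes 6 fell and 0 rose, with 16 negative and a median of -0.38. KCS2, an enzyme that lengthens fatty acids, had 13.7 to 25.2 CPM in the active and 5.50 to 7.68 CPM in the substituted line (-1.42, edgeR adjusted p = 0.00372). The regulator MYB96 differed by -1.24 (edgeR adjusted p = 0.0173) and the transporter ABCG11 by -0.77 (edgeR adjusted p = 0.0218). MYB96 was not called in 3 and ABCG11 in 5 of the 8 fits that left out 1 library. In these fits the adjusted p reached 0.0753 for MYB96 without library 1 of the substituted line and 0.101 for ABCG11 without library 4. Across them the count of lower wax genes was 1 to 5, with 5 without library 3 of the substituted line and 4 after the length trend was removed.

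Leaf metabolism gave fewer calls. NYC1 (AT4G13250), a chlorophyll b reductase that starts chlorophyll breakdown, had 152, 150, 128 and 122 CPM in the active line and 35.0, 50.2, 88.9 and 40.3 CPM in the substituted line, a log2 difference of -1.33 (edgeR adjusted p = 0.00132). Every active library lay above every substituted one, of which library 3 was the highest. NYC1 was 1 of 2 genes called lower among 9 tested senescence genes (median -0.62), where 3 were lower without library 3 of the substituted line and 1 when any other library was left out. FER1 (AT5G01600), an iron storage ferritin, had 317, 300, 306 and 199 CPM and then 93.0, 128, 77.2 and 74.2 CPM (-1.59, edgeR adjusted p = 1.08e-05). It was the gene called among 13 tested of the iron list, of which 2 fell without library 3 and 3 without library 2 of the substituted line, and 1 rose and 3 fell after the length trend was removed. Of 33 nuclear photosynthesis genes 1 rose and 0 fell (median 0.22). Without library 3 of the substituted line 11 rose and 1 fell, in a fit that called 9.65% of all genes higher and 9.19% lower. When any other library was left out 0 to 1 rose and 0 fell. Their summed level was 204000 ± 8850 CPM in the active line and 256000, 233000, 198000 and 274000 CPM in the 4 substituted libraries, of which library 3 alone lay within the active range.

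Among the strongest differences were genes outside the lists. AT1G72416, a chaperone-like DnaJ domain protein, had 21.1, 16.8, 32.4 and 23.1 CPM in the active line and 244, 217, 93.1 and 218 CPM in the substituted line, a log2 difference of 3.04 (SE 0.31, edgeR adjusted p = 4.32e-07). The small heat shock related AT4G21870 differed by 3.56 (edgeR adjusted p = 4.83e-07) and the B-box factor BZS1 by 2.75 (edgeR adjusted p = 0.00039). CAD9 (AT4G39330), a cinnamyl alcohol dehydrogenase family member, had 232, 280, 266 and 199 CPM and then 75.9, 97.8, 69.3 and 72.4 CPM, a log2 difference of -1.63 (SE 0.15, edgeR adjusted p = 1.2e-07). The lines were far apart for CAD9, and library 3 was like the rest of its line. Among the lowest were also the ethylene response type factors AT4G28140 (-2.53) and ERF53 (-2.49), WRKY48 (-3.38) and AT1G49450, for which the ratio of active to substituted was 20.3 (95% interval 6.78 to 100, for counting error only).

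SADHU3-2 (AT3G42658), a retroelement of a plant family annotated as a pseudogene, had the largest fitted fall among the genes named here. It had 53.2, 51.0, 59.0 and 44.1 CPM in the active line and 2.56, 4.45, 0 and 1.83 CPM in the substituted line, a log2 difference of -4.67 (SE 0.43, edgeR adjusted p = 8.29e-08). The mean was 0.118 CPM in Col-0, 16.5 in dxo1-2, 26.3 in the truncated active line and 61.9 in the truncated substituted line. The substituted full-length line was thus nearest to Col-0, and the truncated pair had the opposite order. Near-identical copies of such elements exist, and whether a read that matches several of them was counted is not given in the sources used here. Of 68 tested pseudogenes 4 rose and 3 fell. When library 3 of the substituted line was left out 8 rose and 6 fell, in a fit that called 9.65% of all genes higher and 9.19% lower. When another library was left out 1 to 4 rose and 2 to 3 fell.

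Several lists gave no or few calls in the fit of all libraries. Of 11 tested capping and cap-binding genes and of 13 tested decapping and 5' exonuclease genes, 0 were called in either direction, also without library 3 of the substituted line. The decapping activator DCP5 had 57.7 to 64.1 and 43.5 to 69.2 CPM (-0.05, SE 0.17), and the Nudix hydrolase NUDT7 had 151 to 220 and 68.9 to 189 CPM (-0.58, SE 0.27, edgeR adjusted p = 0.209). Indole glucosinolate genes had 0 calls among 11, the clock list 2 higher among 23, and the phloem list 1 higher among 10. Leaving out 1 library gave 0 to 1 lower for the first, 0 to 4 higher and 0 to 2 lower for the clock list and 0 to 1 in each direction for the phloem list. Of 283 tested ribosomal protein genes 8 rose and 2 fell. With library 3 of the substituted line left out 48 rose and 15 fell, in a fit that called 9.65% of all genes higher and 9.19% lower. When another library was left out 3 to 5 rose and at most 1 fell, and after the length trend was removed 7 rose and 11 fell. Of 80 tested chloroplast-encoded genes 0 rose and 2 fell. Without library 3 of the substituted line 8 rose and 12 fell, in a fit that called 9.65% of all genes higher and 9.19% lower. When any other library was left out 0 rose and 0 to 2 fell. Of 6 tested mitochondrial genes 0 were called. Root markers were at or near 0 throughout, and none of 9 was tested.

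The same substitutions in the truncated protein gave a second comparison in other libraries. There 287 genes were called (2.11%), 197 higher (1.45%) and 90 lower (0.662%). That count was 8 when only the 8 truncated libraries were fitted, 846 without library 4 of the truncated active line, and 101, 137 and 178 without its libraries 1, 2 and 3, and 139 and 103 without libraries 3 and 4 of the truncated substituted line. Of the 515 genes higher in the full-length pair, 410 had a positive difference in the truncated pair (79.6%, beside 50.5% of all tested genes), with a median of 0.34 there and 1.08 in the full-length pair. Of the 515 genes 37 were also called higher there and 8 were called lower. Of the 339 lower genes 208 were negative in the truncated pair (61.4%, beside 49.5%), with a median of -0.12 there and -0.99 in the full-length pair. Of the 339 genes 15 were called lower there and 11 higher. The 52 genes called in the same direction in both are 6.09% of the calls in the full-length pair and 18.1% of those in the truncated pair. The higher and lower genes were chosen by the test in the full-length pair, which by itself makes their differences there larger. The medians of the pairs thus cannot be compared as sizes of effect. The slope of log2 CPM on log2 exon length ran from -1.04 to -0.127 in the truncated active line. It ran from -1.3 to -0.664 in the truncated substituted line. The part of exon length in the signs shared by the pairs was not tested. DXO1 locus reads were also lower in the truncated lines, at 4.45 ± 1.77 CPM in the active and 5.14 ± 1.71 CPM in the substituted one. The truncation and a lower read level cannot be told apart, and since the 3' end of the transgenes is not given in the sources used here, these reads may not show the level of the truncated transcripts.

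The difference between the pairs was tested directly. It passed in 196 genes (1.44%), with 82 positive (0.603%) and 114 negative (0.839%), and 133 of these were among the 854. The count was 352 without library 3 of the substituted full-length line, 114 without library 2 of the active full-length line and 313 without library 4 of the truncated active line. The test contains the difference of the full-length pair from the same libraries, so its overlap with the 854 is partly built in. For PYL4 the substitutions went with 2.74 in the full-length pair, and the difference between the pairs was 3.35 (edgeR adjusted p = 1.85e-06). It was 2.86 for FLA9, 1.82 for EXL3, -1.71 for CAD9 and -5.91 for SADHU3-2. Of the 11 tested seed genes 8 had a called positive difference between the pairs. In the wound and touch list 1 of 16 was higher in the full-length pair (ERF4, 1.48, edgeR adjusted p = 0.0017) and 7 were higher in the truncated pair, and the difference between the pairs was called in 3, all negative.

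**Figure D4:**
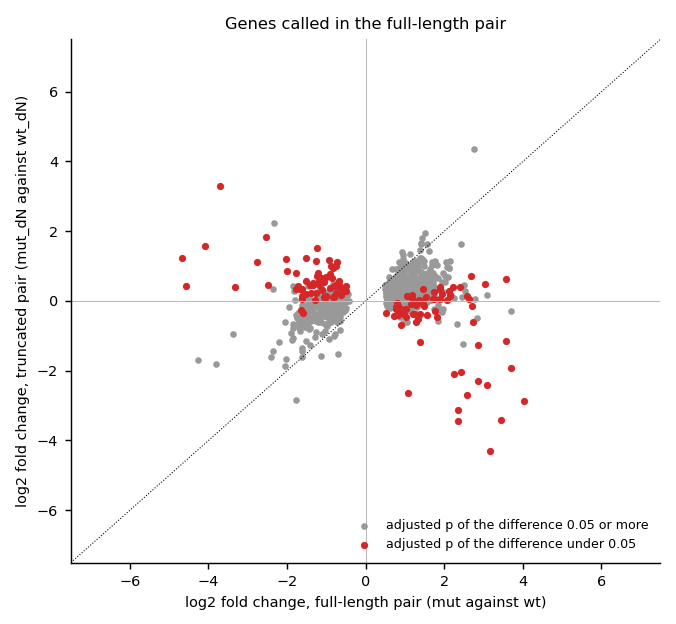
Log2 difference between substituted and active line in the truncated pair (vertical) against that in the full-length pair (horizontal) for the 854 genes called in the full-length pair, with the dotted line marking equal values. The 133 red points differ between the pairs at an adjusted p under 0.05, and most grey points lie on the same side of 0 in both but closer to 0 in the truncated pair. The genes were chosen by the test in the full-length pair, which by itself draws their values there away from 0.

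Set beside all 6 genotypes, some genes placed the substituted line outside every other library. In 138 genes (1.02% of those tested) its 4 libraries lay above all others of the series, and in 81 (0.596%) below. For the active line the numbers were 69 (0.508%) and 43 (0.316%), for Col-0 79 and 38, for dxo1-2 17 and 1, for the truncated active line 42 and 108 and for the truncated substituted line 42 and 11. Of the 138 genes 104 were called between the full-length lines, among them PYL4, PYL5, PYL6, FLA2, FLA9, FLA13, FLA18, EXL3, ASN1, DIN10 and STP1. Of the 69 genes above in the active line 40 were called, among them MYB74, CRK11, CRK14, ARCK1 and SARD1. Lying above all other libraries includes lying above the other full-length line, so these counts of calls are partly built in by the choice. Of all 1731 genes without overlap between the full-length lines 719 were called. The mean of FLA9 was 14.9 ± 3.66 CPM in Col-0, 14.8 ± 1.19 in dxo1-2, 12.4 ± 1.15 in the truncated active line and 11.0 ± 2.56 in the truncated substituted line. That of PYL4 was 11.4 ± 1.64, 19.8 ± 2.36, 31.3 ± 8.73 and 20.2 ± 7.57 CPM in the same order, and that of CAD9, which lay below in the substituted line, was 208 ± 21.2, 240 ± 30.7, 220 ± 17.1 and 232 ± 13.1 CPM. For these 3 genes the active line was within reach of Col-0 and dxo1-2, and the substituted line was far from both. ASN1 differed from that, at 8.65 ± 2.18 CPM in Col-0 and 1.34 ± 0.906 CPM in dxo1-2. CRK11 was highest in the active line, at 13.2 ± 2.82 CPM in Col-0 and 17.4 ± 2.86 CPM in dxo1-2. PYL4, FLA9 and CAD9 thus set the substituted line apart, and CRK11 the active line. The sum over arabinogalactan proteins did not set the substituted line apart. It was 3260 ± 801 CPM there, 3020 ± 542 in dxo1-2 and 3260 ± 871 in the truncated substituted line, and lowest in the active line, at 1310 ± 150 CPM. Of its members AGP15 lay below all other libraries in the active line, and AGP7 above them in the substituted line.

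**Figure D5:**
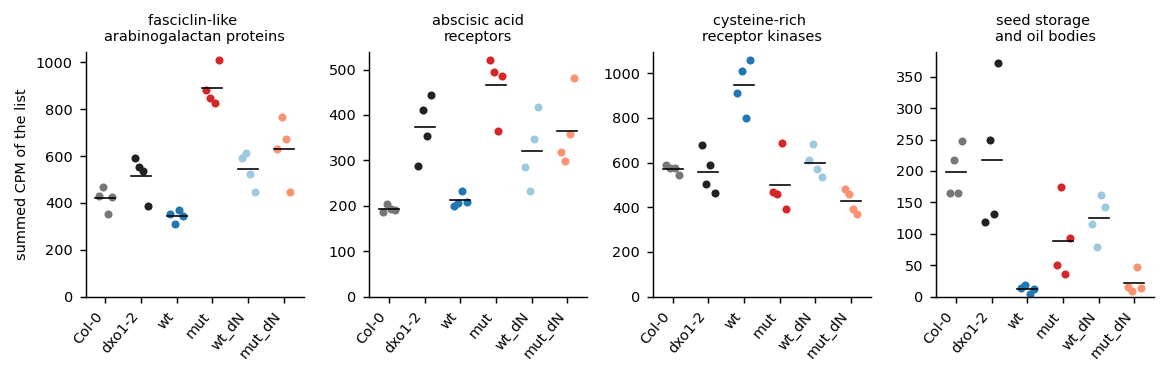
Summed level in CPM of 4 gene lists in every library of the 6 genotypes (points), with a black line at the mean of each. Fasciclin-like arabinogalactan proteins, at 893 ± 81.2 CPM, and abscisic acid receptors, at 467 ± 69.6 CPM, have their highest mean in the substituted full-length line, cysteine-rich receptor kinases, at 945 ± 115 CPM, in the active full-length line, and seed genes, at 12.6 ± 5.99 CPM, are lowest in the active full-length line.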

How the data were processed

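Counts per gene were deposited as 1 table per library, as whole numbers with no normalization by the authors, and 0 lines named no gene. Per the submitters' processing notes STAR 2.7.8a, DESeq2 and the build TAIR10 were used; the counter, the use of strand and the collapsing of molecular identifiers are not given in the sources used here, so intervals cover counting error only. Of 37184 loci 36899 matched RefSeq TAIR10.1, the source of names, coordinates and sequences; exon length was known for 99.4% of tested genes.

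Groups came from the sample titles. All 24 libraries, with totals of 1270033 to 3490594 counts, entered 1 fit of edgeR 4.0.16 (R 4.3.3) with TMM scaling, the edgeR filter on low counts (13592 genes kept) and the quasi-likelihood test, adjusted by Benjamini-Hochberg over all tested genes. A 95% interval is given for a ratio where a line had at most 3 counts, and such a ratio uses counts summed over the libraries of each line. Alternatives were median-of-ratios scaling, DESeq2 1.42.0, no filter, at least 10 counts in every library, only the libraries compared, a replicate block, organelle genes left out, a lowess of span 0.3 on exon length removed, and each library left out. The steps were also run on simulated counts with known changes. That simulation held no deviating library and no length trend, so it says nothing on how either moves the calls. No 2 libraries were identical.

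Genes were named by rule: DXO1, the 12 highest and 12 lowest called genes with at least 20 mean counts in the higher line and no overlap, the 5 smallest p in each direction, up to 4 called members of each list (or, with none called, 2 with the highest mean), the 3 smallest p of the difference between pairs, and 7 further genes. PYL6, AFB3, TIR1, ACS6, SMT3, GALS1 and the genes named from the added lists were chosen after their values were seen. The members, lists and rule were chosen with earlier results of these data known.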

Additional observations from a re-analysis of the deposited data

Results flagged for a closer look

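In 11 of 208 groups of 4 libraries (104 named genes, both full-length lines), 1 library lay far from the other 3 by Dixon's criterion, which chance meets in about 1 in 20 groups. In the active line these were AT4G28140 in library 2 (103 CPM), AT2G37130 in library 1 (19.1 CPM), FER1 in library 4 (199 CPM), TCP11 in library 3 (115 CPM), AT3G03920 in library 1 (22.8 CPM) and TIR1 in library 3 (34.1 CPM). In the substituted line they were WRKY54 in library 2 (95.3 CPM), PYR1, ERF4 and GUN4 in library 3 (52.6, 55.1 and 171 CPM) and GALS1 in library 4 (59.5 CPM). The mitochondrial share of counts in library 1 of the active line (0.118%) met the same criterion within its line.

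The difference between substituted and active line itself differed between the full-length and the truncated pair in 42 of the 104 genes (edgeR, adjusted p under 0.05, beside 1.44% of all tested genes). The named genes were partly chosen by their values in the full-length pair, which raises that share. The log2 value is the difference in the full-length pair minus that in the truncated pair. It was positive for SESA3 (6.91), AT4G21870 (2.93), AT1G72416 (2.55), PYL4 (3.35), FLA9 (2.86), PAR2 (1.98), PYL5 (2.42), CRU3 (4.48), EXL3 (1.82), FLA2 (1.49), SESA5 (7.47), OLEO1 (5.50), VSP2 (5.15), WRKY54 (0.87), PYR1 (1.13), FLA13 (1.66), AT4G38840 (1.74), AFB3 (1.67), HKL1 (1.58), SMT3 (1.83), bZIP2 (1.48), GALS1 (2.02), PYL6 (4.13) and TIR1 (1.23). It was negative for SADHU3-2 (-5.91), PUB19 (-4.98), AT1G49450 (-5.68), MYB74 (-7.00), AT4G28140 (-4.35), ERF53 (-2.95), CAD9 (-1.71), FER1 (-1.25), AT1G73390 (-1.39), IAR3 (-1.65), WRKY40 (-2.77), PYL7 (-1.50), TPS10 (-1.24), CRK11 (-2.18), ATCG00720 (-1.13), RD28 (-1.74), XTH31 (-1.96) and ACS6 (-2.02).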

How the results depend on the processing

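Of the 103 called genes tracked, 0 changed direction in the settings that tested them (89 were tested by DESeq2 and 68 under the minimum of 10 counts). Between the full-length lines, the higher count was 849 with DESeq2, the lower count 553 with the length trend removed, and the share higher was 68.0% with DESeq2. Leaving out 1 library gave 421 to 2585 genes in total, 278 to 1324 higher and 143 to 1261 lower. For the difference between the pairs the count was 351 with DESeq2, 376 with the length trend removed and 114 to 352 leaving out 1 library. In the truncated pair it was 8 with only the libraries compared and 101 to 846 leaving out 1 library. DXO1 was not called in any setting, at 0.50 to 0.67 leaving out 1 library. The causes were not tested.

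Replicate numbers did not pair the libraries of the full-length lines (correlations of same-numbered deviations of -0.225, 0.0321, -0.536 and -0.0774). In the truncated pair the correlations were 0.177, 0.601, -0.0295 and 0.613, so same-numbered libraries 2 and 4 varied together there. The main fit held no replicate block for either pair. With the number as a replicate block the total between the full-length lines was 1222, with 695 higher and 527 lower. With that block it was 442 in the truncated pair, beside 287 without, and 248 for the difference between the pairs, beside 196.

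A window of 300 bases that runs past the start, and so is longer, raised the share of all tested promoters with a motif to 9.35% (G-box), 6.48% (evening element), 2.61% (GCC box), 14.1% (W-box), 17.4% (TATCCA), 3.06% (telo-box) and 7.69% (RY repeat).

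Of 103 called genes tracked, 79 to 102 kept their call leaving out 1 library. The depth of 1273473 counts in the shallowest library limits genes below a few CPM. With 4 libraries a side and library 3 of the substituted line apart, small differences may have been missed.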

Other observations

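Chlorophyll synthesis and water channels gave further differences, in lists added after the calls were seen. Of 26 tested tetrapyrrole synthesis genes 1 rose and 5 fell in the substituted line (median -0.40), and 11 fell without library 3 of that line, 0 without its library 4, and 2 without its library 1 or 2 or library 2 of the active line. The fit without library 3 of the substituted line called 9.19% of all genes lower. HEMA1, the enzyme of the first committed step, had 342 to 413 CPM in the active line and 150, 189, 301 and 137 CPM in the substituted line (-0.97, edgeR adjusted p = 0.0198). Its adjusted p was 0.0819, 0.0588 and 0.0934 without library 1, 2 or 4 of the substituted line and 0.0622 without library 2 of the active line. GUN4, which stimulates the enzyme that inserts magnesium, went the other way, from 154 ± 6.34 to 250 ± 52.4 CPM (0.70, edgeR adjusted p = 0.00855).

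Of 13 tested plasma membrane aquaporins 1 rose and 4 fell. Without library 3 of the substituted line 3 rose, and without library 2 of either line 2 fell. PIP3 had 145 to 230 CPM in the active line and 327 to 573 CPM in the substituted line (1.37, edgeR adjusted p = 7.04e-05), while RD28 had 32.1 to 58.9 and 8.77 to 21.1 CPM (-1.61, edgeR adjusted p = 0.000448). The groups did not overlap for either. Of 7 sugar kinases and SnRK1 subunits 1 rose and 2 fell. KIN11, a catalytic subunit of the low-energy kinase SnRK1, went from 20.6 ± 3.52 to 7.77 ± 2.3 CPM (-1.44, edgeR adjusted p = 0.013, and 0.057 without library 2 of the substituted line), and the hexokinase-like HKL1 from 13.2 ± 3.52 to 30.7 ± 8.15 CPM (1.20, edgeR adjusted p = 0.00481).

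Among genes in which the substituted line lay outside all other libraries, the sterol methyltransferase SMT3 had 16.0 to 30.4 CPM in the active line and 85.7 to 119 CPM in the substituted line (2.12, edgeR adjusted p = 6.32e-05). GALS1, which makes pectic galactan, went from 8.51 ± 3.28 to 45.8 ± 9.24 CPM (2.41, edgeR adjusted p = 3.53e-06). The auxin receptor TIR1 went from 38.5 ± 2.91 to 69.0 ± 19.5 CPM (0.83, edgeR adjusted p = 0.0094, and 0.0758 without library 4 of the substituted line). The ethylene synthesis enzyme ACS6 lay below, with 10.2 to 13.6 CPM in the active line and 1.91 to 5.12 CPM in the substituted line (-1.68, edgeR adjusted p = 0.00181).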
